A study of Mus musculus with 24 samples.

Results

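The genes described here are 30 transcripts that mark glia and neural progenitors, taken by symbol from a table of 47643 genes. All 30 were found. They comprise 13 astrocyte genes, 3 genes of neural proteoglycans, 5 genes of oligodendrocyte precursors, 6 myelin genes and 3 neural progenitor genes. They were read in 24 bulk RNA-seq libraries of mouse macrophages, a cell type for which these genes are not the usual markers. Macrophages grown from induced pluripotent stem cells (iPSC-derived, called iMac in the design text) and macrophages grown from bone marrow (bone marrow-derived, called BM-Mac) were each collected at day 0, before any co-culture. Both were also collected after 3, 6 and 12 days of co-culture, when the design text calls them iMicro and BM-Micro. This gives 8 groups with n = 3 independent replicates each. The sources used here give no strain, genotype or age, name no co-culture partner, and do not say how the macrophages were separated from it. A day 0 library therefore differs from a later one in both time and co-culture.

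Glia are the non-neuronal cells of nervous tissue. Astrocytes take up glutamate, buffer ions and carry intermediate filaments of GFAP. Oligodendrocyte precursors, driven by the transcription factors OLIG1, OLIG2 and SOX10, mature into the cells that wrap axons in myelin, and radial glia and neural progenitors express SOX2, nestin and the brain fatty acid-binding protein. Many of these transcripts are abundant in brain and close to absent from isolated blood cells, but a few, such as Cnp and the Mbp gene, are also transcribed outside glia. A bulk library counts RNA whatever cell it came from.

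Promoter sequences are shown for 4 of the genes that stood at or below 1 CPM (read counts relative to library size) in every day 0 library and rose in both sources, apart from Ncan, which reached 1.16 CPM in 1 bone marrow-derived library. Of the 30 genes, 23 had a start site in the RefSeq promoter table (GRCm38.p6), with 28 windows in all. Each window runs 5′ to 3′ on the gene's strand from 250 bases before to 50 bases after the start, and capitals mark a match to a motif searched on both strands. Offsets count from 0 at the start site.
Gfap: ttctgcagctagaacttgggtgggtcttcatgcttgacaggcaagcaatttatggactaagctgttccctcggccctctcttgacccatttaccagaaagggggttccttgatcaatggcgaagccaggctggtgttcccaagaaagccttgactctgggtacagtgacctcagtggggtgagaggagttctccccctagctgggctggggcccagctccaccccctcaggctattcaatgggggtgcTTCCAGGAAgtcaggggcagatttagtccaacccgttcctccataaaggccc
Slc1a3: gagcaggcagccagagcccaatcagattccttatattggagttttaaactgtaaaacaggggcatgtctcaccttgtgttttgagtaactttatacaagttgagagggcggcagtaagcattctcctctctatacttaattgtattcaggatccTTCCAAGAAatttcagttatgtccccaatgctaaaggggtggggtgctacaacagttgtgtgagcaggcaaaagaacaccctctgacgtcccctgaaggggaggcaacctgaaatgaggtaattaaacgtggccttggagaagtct
Ncan: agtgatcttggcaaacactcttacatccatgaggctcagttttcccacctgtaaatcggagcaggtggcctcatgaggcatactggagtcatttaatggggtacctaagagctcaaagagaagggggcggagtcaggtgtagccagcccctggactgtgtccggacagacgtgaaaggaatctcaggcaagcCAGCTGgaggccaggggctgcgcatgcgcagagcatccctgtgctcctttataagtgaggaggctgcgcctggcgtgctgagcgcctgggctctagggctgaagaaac
Mobp: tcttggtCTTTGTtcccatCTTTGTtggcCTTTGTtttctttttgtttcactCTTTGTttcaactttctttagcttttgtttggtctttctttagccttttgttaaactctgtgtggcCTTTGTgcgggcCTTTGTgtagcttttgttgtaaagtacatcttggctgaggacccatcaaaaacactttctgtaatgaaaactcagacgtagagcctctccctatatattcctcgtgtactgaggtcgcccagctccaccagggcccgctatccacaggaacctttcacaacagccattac
The capitals in the Gfap window (chr11:102897151-102897450, minus strand) mark TTCNNNGAA, a STAT motif, at offset -2, and this window lies within the span of the gene in the annotation of the counts. The Slc1a3 window (chr15:8710758-8711057, minus strand) holds the same motif at offset -96. The Ncan window (chr8:70120795-70121094, minus strand) holds the E-box CAGCTG at offset -58. In the Mobp window (chr9:120149492-120149791, plus strand) the SOX motif ACAAAG, read here on the other strand as CTTTGT, was found 6 times, at offsets -243, -231, -221, -198, -132 and -120. The STAT motif was also in windows of Aldoc and Mag, so that 6 of the 28 windows (21.4%) held it, against 8.30% of 32851 promoters. The 6 windows include 3 of Mag, of which 2 overlap. The SOX motif was in 5 windows (17.9%, of Cnp, Mag, Mobp and Sox2) against 18.7% of promoters, and CAGCTG in 3 (10.7%, of Fgfr3, Ncan and Slc1a2) against 16.3%. Neither the E-box CATATG (3.91% of promoters) nor the full palindromic NFI motif (0.0365%) was in a window of these genes. These matches describe letters in the windows only.

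Library totals ran from 5839316 to 11805478 counts. The 10 macrophage markers (among them Csf1r, Cd68 and Adgre1) were detected in all 24 libraries, and summed to between 5441 and 14034 CPM per library. Markers of other cells were counted as well. A list of 15 neuron genes summed to 1.29 to 3.39 CPM in the 6 day 0 libraries and to 10.9 to 65.9 CPM in the 18 co-cultured libraries. A list of 10 fibroblast genes summed to 1.56 to 30.3 CPM at day 0 and to 19.5 to 847 CPM after co-culture. In each day 0 group 8 of the neuron genes had no count, among them Nefl, Gad1 and Slc17a7. At day 12 Gad1, Gad2, Slc17a6 and Slc17a7 had no count in iPSC-derived cells, and Slc17a7 alone in bone marrow-derived cells. By day 12, 7 of 12 tested neuron genes and 7 of 10 fibroblast genes rose in iPSC-derived cells, against 5 of 12 and 8 of 10 in bone marrow-derived cells. Of all genes tested, 14% rose in iPSC-derived cells and 14.7% in bone marrow-derived cells in the same comparisons. A list of 6 endothelial genes summed to 27.2 to 33.5 CPM in iPSC-derived cells at day 0 and at most 23.7 CPM in all other groups, and 4 Schwann cell genes to at most 4.48 CPM. The neuron and fibroblast lists were higher in the same libraries as many of the glial genes below, and their part in the glial values was not tested. In bulk samples, fewer cells of a type and less RNA per cell cannot be told apart.

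One control library stood apart. Bone marrow-derived day 0 replicate 2 held counts for 27 of the 30 genes, against 9 in replicate 1 and 17 in replicate 3. For the 21 genes with a day 0 mean below 1 CPM in both sources, its summed level was 10.1 CPM, against 0.258 and 1.3 CPM. All 10 fibroblast markers were detected in the same library, with a sum of 16.1 CPM against 2.58 and 1.56 CPM. Fold changes from bone marrow-derived day 0 therefore depend on this library. Values without it, or without another single library, stand beside the changes that moved by over 1.5 times. Leaving out a day 0 library that holds no count of a gene also lowers that gene's bound or count ratio, since less depth remains in the control, and most of those values are not repeated below.

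Without co-culture, most of these transcripts were at or near 0. In iPSC-derived day 0 cells 9 of the 30 genes had a mean of at least 1 CPM, and in bone marrow-derived day 0 cells 6 did. The 6 were Gja1, Aldoc, Aldh1l1, Mbp, Mag and Cnp, and iPSC-derived cells added Clu, Cspg4 and Nes. After co-culture the number at or above 1 CPM was 20, 25 and 28 at days 3, 6 and 12 in iPSC-derived cells, and 23, 23 and 25 in bone marrow-derived cells. Over all genes, day 0 libraries held counts for 15357 to 16215 genes and co-cultured libraries for 16265 to 18321. The share of all genes that crossed 1 CPM was not computed, so these numbers describe the 30 genes only. Summed over the 21 genes that were low at day 0, the 3 iPSC-derived libraries went from 4.16, 4.27 and 3 CPM at day 0 to 55.6, 44.8 and 56.1 at day 3, 129, 185 and 117 at day 6 and 146, 209.7 and 145 at day 12. The bone marrow-derived sums were 53.8, 86.2 and 63.7 CPM at day 3, 111, 71.5 and 123 at day 6 and 129, 116 and 134 at day 12. No co-cultured library of either source overlapped its day 0 group on this sum. The 21 genes were chosen for a low day 0 level in these same libraries, so their low day 0 sum follows from the choice. The separation is therefore a description and no test of the list.

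**Figure D1:**
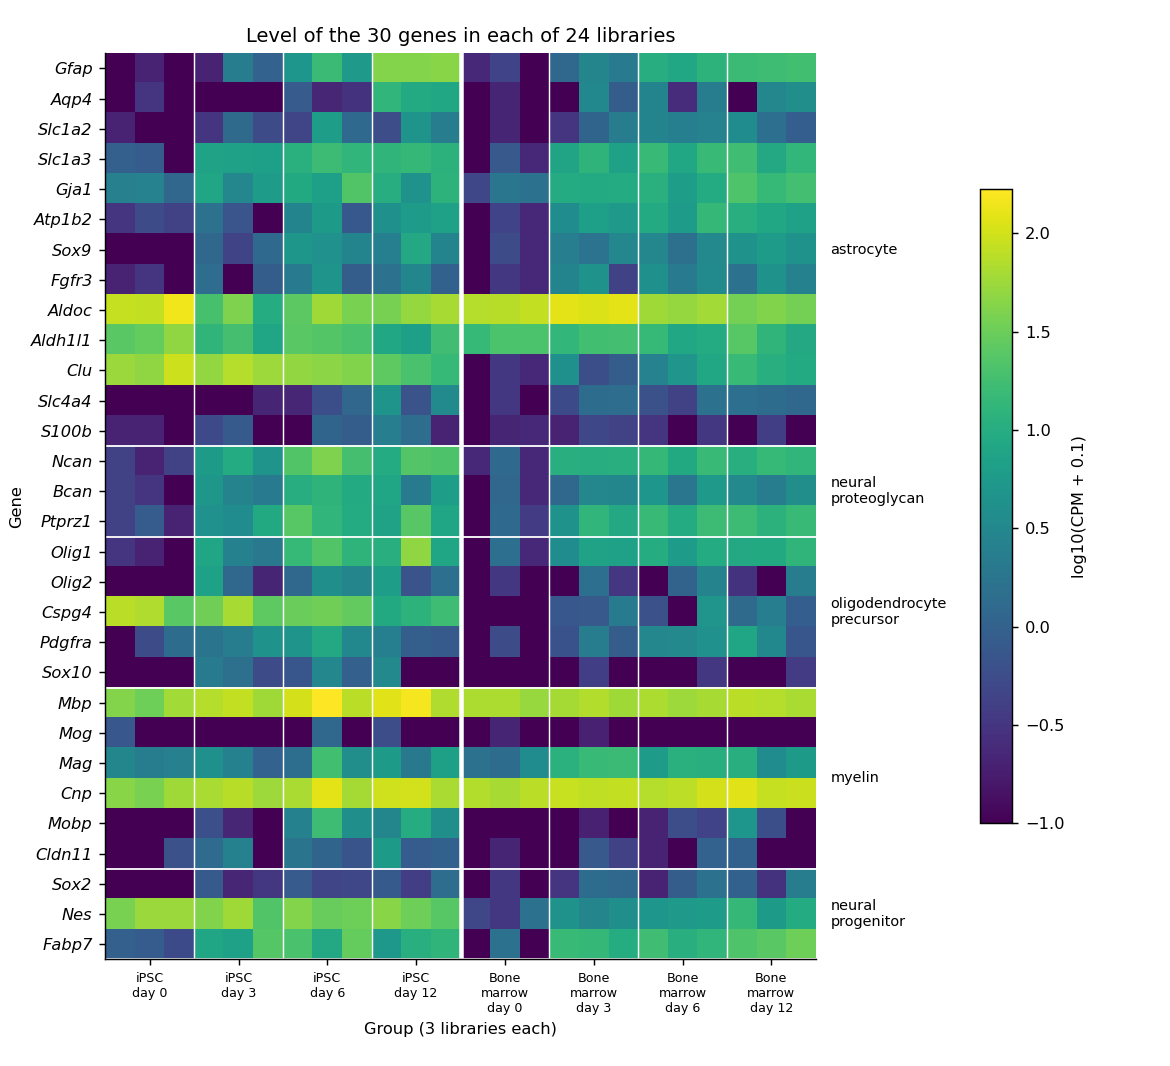
Level of the 30 genes (rows, by role) in the 24 libraries (columns, 3 per group), as log10 of CPM plus 0.1. Most rows are dark at day 0 in both sources and brighter after co-culture, whereas Aldoc, Mbp and Cnp are bright throughout and Clu, Cspg4 and Nes are bright at day 0 in iPSC-derived cells alone.

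The test compared counts with edgeR's quasi-likelihood method, adjusted by the Benjamini-Hochberg method over 15000 genes. A gene is said to have risen or fallen where its adjusted p was below 0.05. Mog and S100b had too few counts to be tested, which leaves 28. Genes that passed the filter on low counts only through their co-cultured libraries had to differ, so the counts of calls describe these genes and are no test of the list. In iPSC-derived cells 9 of 28 rose and 2 fell at day 3 against day 0, where 11.2% and 8.14% of all genes tested did. At day 6 it was 20 and 1 (all genes 14.3% and 11%), and at day 12 it was 19 and 4 (14% and 10.7%). In bone marrow-derived cells 16 rose and 0 fell at day 3 (11.9% and 6.61%), 18 and 0 at day 6 (12.7% and 6.89%) and 19 and 1 at day 12 (14.7% and 9.08%). With library totals alone in place of scaling factors, the share of all calls that were higher moved from 58% to 37.7% (iPSC-derived day 3), 56.6% to 45.7% (iPSC-derived day 12), 64.7% to 77.6% (bone marrow-derived day 6) and 61.8% to 76.2% (bone marrow-derived day 12), while no glial gene changed direction. Without bone marrow-derived day 0 replicate 2, the genes called in either direction numbered 17, 16 and 19 in these bone marrow-derived comparisons, against 16, 18 and 20 with it. Over all genes the calls numbered 2131, 2172 and 2699 without that library, against 2775, 2933 and 3568 with it. The median log2 fold change at day 12 was 3.91 over 28 genes in iPSC-derived cells and 3.91 over 27 genes in bone marrow-derived cells, with genes at 3 or fewer counts entered at their bound or count ratio. Over all genes it was 0.04 in both. Genes that passed the filter only through co-cultured libraries also raise the medians of the glial genes, which are therefore no test of the list.

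Among the astrocyte genes, 9 of the 12 tested rose and 3 fell in iPSC-derived cells by day 12, where 14% and 10.7% of all genes did. The bone marrow-derived counts were 10 of 12 risen and 1 fallen, where 14.7% and 9.08% of all genes did. Gfap, the astrocyte intermediate filament (ENSMUSG00000020932.14, chromosome 11, 102887336 to 102900912, minus strand), had a mean that climbed at each time point in both sources. In iPSC-derived cells its 3 libraries held 0, 0.109 and 0 CPM at day 0, 0.103, 2.17 and 0.919 at day 3, 4.88, 15.6 and 5.47 at day 6 and 42.5, 41.7 and 44.6 at day 12. The bone marrow-derived libraries held 0.129, 0.348 and 0 CPM at day 0, 1.09, 2.87 and 2.12 at day 3, 10.1, 8.32 and 12 at day 6 and 15.5, 16.6 and 17.6 at day 12. The day 12 libraries of each source lay above all its earlier ones and within a narrow range, and the iPSC-derived day 12 libraries lay above all bone marrow-derived libraries. The iPSC-derived day 0 group held 1 Gfap count in all, in replicate 2, so its change is given as a count ratio, the linear fold between summed counts over summed library sizes, with an interval for counting error only. That ratio was 1185 (95% interval 212 to 46854, adjusted p = 1.9e-08), and without day 0 replicate 2 Gfap was at least 264-fold higher than a group at 0. Gfap in bone marrow-derived cells rose by 6.53 ± 0.77 log2 units (SE, adjusted p = 6.6e-07) from day 0 to day 12, and without day 0 replicate 2 its count ratio was 256 (95% interval 45.8 to 10148, against 1 day 0 count). The difference between the sources at day 12 was 1.37 ± 0.50 log2 units (SE, adjusted p = 0.0858) and did not pass the test, although the 2 groups did not overlap.

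Gfap also rose within co-culture, where all libraries share the condition. From day 3 to day 12 it rose by 5.35 ± 0.62 log2 units (SE, adjusted p = 4.3e-06) in iPSC-derived cells and by 3.02 ± 0.56 log2 units (SE, adjusted p = 7.0e-04) in bone marrow-derived cells. Leaving out iPSC-derived day 3 replicate 2 gave 6.39 for the first. Over the same days the neuron list summed to 20.3 to 51.2 CPM at day 3 and 10.9 to 29.6 CPM at day 12 in iPSC-derived cells, and to 48.0 to 65.9 and 21.2 to 29.9 CPM in bone marrow-derived cells. The fibroblast list summed to 25.4 to 97.7 and 285 to 503 CPM in iPSC-derived cells, and 19.5 to 32.8 and 124 to 215 CPM in bone marrow-derived cells. The part of either in the Gfap values was not tested.

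Aqp4, the water channel of astrocyte endfeet, was late in iPSC-derived cells and uneven in bone marrow-derived cells. No Aqp4 count was found in the 3 iPSC-derived day 3 libraries, day 6 libraries held at most 0.751 CPM, and day 12 libraries held 13.2, 9.29 and 8.19 CPM. Aqp4 was at least 89.6-fold higher at day 12 than at day 3 (adjusted p = 0.00345), with no overlap. Its count ratio to day 0 was 139 (95% interval 38 to 1150, adjusted p = 0.00289), and without day 0 replicate 2, which held both day 0 counts, it was at least 61.8-fold higher. In bone marrow-derived cells the day 12 libraries held 0, 2.97 and 3.87 CPM, so 1 of them had no count and overlapped day 0. The count ratio there was 56.3 (95% interval 9.8 to 2255, adjusted p = 0.023), but 36 (95% interval 5.98 to 1468, against 1 count) without day 12 replicate 3, and without day 0 replicate 2 Aqp4 was at least 12-fold higher. The call of this rise was lost without any 1 of the 3 day 0 libraries or day 12 replicate 3 (adjusted p from 0.0514 to 0.0876).

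The glutamate transporters behaved in different ways. Slc1a3 encodes GLAST, the transporter of radial glia and astrocytes, and was present early in both sources. Its iPSC-derived libraries held 0.875, 0.766 and 0 CPM at day 0, 7.18, 6.86 and 6.54 at day 3, 11.1, 16.2 and 13 at day 6 and 12.8, 13.8 and 11.8 at day 12. Bone marrow-derived values were 0, 0.696 and 0.13 CPM at day 0, 7.43, 12.4 and 6.81 at day 3, 14.8, 8.32 and 14.6 at day 6 and 17.3, 8.63 and 13.5 at day 12. Every co-cultured library lay above every day 0 library, and days 6 and 12 overlapped. By day 12 Slc1a3 had risen by 4.52 ± 0.62 log2 units (SE, adjusted p = 6.1e-06) in iPSC-derived cells and by 5.45 ± 0.68 log2 units (SE, adjusted p = 1.6e-06) in bone marrow-derived cells, and without day 0 replicate 2 the bone marrow-derived count ratio was 203 (95% interval 36.2 to 8036, against 1 day 0 count). Slc1a2, which encodes GLT-1, the main glutamate transporter of mature astrocytes, had few counts. Its highest group mean was 2.58 ± 0.185 (SD, n = 3) CPM at day 6 in bone marrow-derived cells, and its iPSC-derived day 12 libraries spread over 0.479, 4.55 and 2.23 CPM. Its iPSC-derived day 12 count ratio against a day 0 group with 1 count, in replicate 1, was 71 (95% interval 12.3 to 2840, adjusted p = 0.00501). It was 39.4 (95% interval 6.47 to 1614, against 1 count) without day 12 replicate 2, and without day 0 replicate 1 Slc1a2 was at least 15.8-fold higher than a group at 0. The bone marrow-derived ratio was 45.5 (95% interval 7.86 to 1828, adjusted p = 0.00977), or 26.1 (95% interval 4.24 to 1075, against 1 count) without day 12 replicate 1, and without day 0 replicate 2 Slc1a2 was at least 9.74-fold higher.

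Gja1 (connexin 43, the astrocyte gap junction protein) and Atp1b2 (the beta 2 subunit of the sodium pump) rose in both sources by day 12. Gja1 was already counted at day 0 in all 6 libraries, at 2.41, 2.63 and 1.07 CPM in iPSC-derived cells and 0.387, 1.74 and 1.56 CPM in bone marrow-derived cells. At day 12 it stood at 10.2, 4.26 and 12 CPM and 21.7, 14.5 and 17.9 CPM, above the day 0 libraries of its source each time. The rises were 2.11 ± 0.53 log2 units (SE, adjusted p = 0.00439) and 3.85 ± 0.57 log2 units (SE, adjusted p = 1.5e-05). At day 3 Atp1b2 stood at 1.54, 0.602 and 0 CPM in iPSC-derived libraries, which overlapped day 0, while the bone marrow-derived ones held 3.61, 6.43 and 5.36 CPM. That day 3 difference between sources was -2.80 ± 0.78 log2 units (SE, adjusted p = 0.0117), and -4.06 without iPSC-derived day 3 replicate 1. By day 12 the source groups overlapped, at 4.07, 5.88 and 6.98 CPM and 10.4, 8.53 and 6.93 CPM. Atp1b2 had then risen by 4.06 ± 0.85 log2 units (SE, adjusted p = 9.1e-04) in iPSC-derived cells and by 5.60 ± 0.94 log2 units (SE, adjusted p = 7.8e-05) in bone marrow-derived cells, where the count ratio was 132 (95% interval 23.5 to 5240, against 1 day 0 count) without day 0 replicate 2.

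Sox9, a transcription factor of astrocytes and radial glia, had no count in the 3 iPSC-derived day 0 libraries. It held 1.13, 0.361 and 1.15 CPM at day 3, 5, 4.22 and 2.73 at day 6 and 2.4, 8.62 and 2.73 at day 12, and was at least 8.25-fold, 35.7-fold and 44.1-fold higher than at day 0 (a floor of 3 counts over the group). Without day 12 replicate 2 the last was at least 23.7-fold. In bone marrow-derived cells it went from 0, 0.464 and 0.13 CPM at day 0 to 4.31, 5.95 and 4.41 CPM at day 12, a rise of 4.49 ± 0.86 log2 units (SE, adjusted p = 4.3e-04), and the count ratio without day 0 replicate 2 was 75.2 (95% interval 13.3 to 2991, against 1 day 0 count). Fgfr3, a growth factor receptor of astrocytes and their precursors, and Slc4a4, a bicarbonate cotransporter, also rose in both sources by day 12. Fgfr3 reached 1.56, 2.94 and 0.91 CPM in iPSC-derived cells and 1.5, 4.36 and 2.52 CPM in bone marrow-derived cells, with count ratios to day 0 of 16.9 (95% interval 5.49 to 84.8, adjusted p = 0.0197) and 22.4 (95% interval 7.41 to 111, adjusted p = 0.0101). The first was 11.1 (95% interval 3.34 to 57.9, against 3 counts) without day 12 replicate 2 and 34 (95% interval 5.84 to 1368, against 1 count) without day 0 replicate 2, and the second 43.1 (95% interval 7.53 to 1720, against 1 count) without day 0 replicate 2. Slc4a4 reached 4.55, 0.569 and 3.34 CPM in iPSC-derived cells and was at least 24.6-fold higher than at day 0 (adjusted p = 0.00142). Bone marrow-derived libraries reached 1.4, 1.29 and 1.08 CPM, a count ratio of 15 (95% interval 3.9 to 129, adjusted p = 0.0413), and without day 0 replicate 2 Slc4a4 was at least 6.44-fold higher than a group at 0. For Fgfr3, 13.9% of its exon length is shared with the gene G630022F23Rik, and reads over both were counted for neither. The Fgfr3 call at day 12 in iPSC-derived cells was lost without day 0 replicate 1, day 0 replicate 3 or day 12 replicate 2 (adjusted p from 0.0642 to 0.0733), and in bone marrow-derived cells without day 0 replicate 1 (adjusted p = 0.0507). The Slc4a4 call in bone marrow-derived cells was lost in 5 of 6 fits that each left out 1 library (adjusted p from 0.0636 to 0.142), day 0 replicate 2 being the exception. S100b, a calcium-binding astrocyte protein, reached a mean of 1 CPM only in iPSC-derived day 12 cells (2.28, 1.33 and 0.101 CPM) and was not tested.

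**Figure D2:**
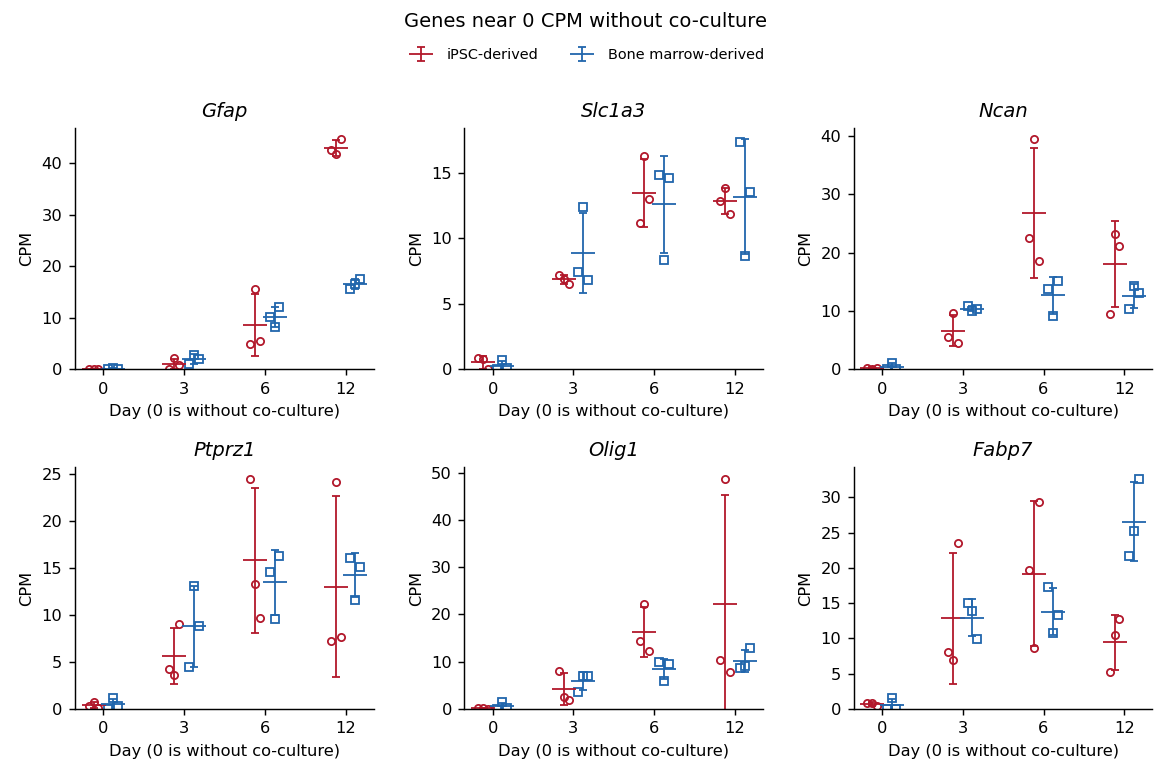
CPM of 6 genes that were near 0 without co-culture, by day, in iPSC-derived (circles) and bone marrow-derived (squares) libraries. Wide bars are the means and error bars the SD of 3 libraries, drawn from 0 upwards. Gfap is highest at day 12 in both sources, whereas Slc1a3, Ncan and Ptprz1 overlap between days 6 and 12.

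Aldoc, Aldh1l1 and Clu are listed as astrocyte markers, but iPSC-derived libraries held all 3 without co-culture, and none of the 3 rose from day 0 in these cells. Bone marrow-derived day 0 libraries held Aldoc and Aldh1l1, whereas Clu was near 0 there (mean 0.121 CPM). Aldoc is the brain-enriched aldolase of glycolysis. Its iPSC-derived libraries held 87.9, 84.8 and 141 CPM at day 0, 19.3, 39.2 and 9.87 at day 3, 26, 57.5 and 37.7 at day 6 and 36.3, 52.4 and 63.3 at day 12. Its bone marrow-derived levels were 72.4, 76.1 and 85.6 CPM at day 0, 122, 113 and 123 at day 3, 58.9, 51.5 and 60.1 at day 6 and 35.2, 40.6 and 35 at day 12. The lowest point in iPSC-derived cells was day 3, which in bone marrow-derived cells was the highest. Aldoc fell by 2.20 ± 0.34 log2 units (SE, adjusted p = 4.8e-05) in iPSC-derived cells at day 3 (-2.83 without day 3 replicate 2), and the change at day 3 differed between the sources by -2.81 ± 0.47 log2 units (SE, adjusted p = 9.7e-05). That difference was -3.48 without iPSC-derived day 3 replicate 2. By day 12 Aldoc had fallen in both, by 1.04 ± 0.32 log2 units (SE, adjusted p = 0.0213) and 1.08 ± 0.33 log2 units (SE, adjusted p = 0.0185). Both calls were lost without 1 of 3 libraries: in iPSC-derived cells day 0 replicate 3 or day 12 replicates 1 or 2 (adjusted p from 0.0581 to 0.118), and in bone marrow-derived cells day 0 replicate 3 or day 12 replicates 1 or 3 (0.0574 to 0.065).

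Aldh1l1, a folate enzyme used to label astrocytes, held 25.1, 28.6 and 49.2 CPM in iPSC-derived cells at day 0 and 8.27, 6.44 and 17.3 CPM at day 12. It fell by 1.68 ± 0.40 log2 units (SE, adjusted p = 0.00276) with no overlap. The fall was already called at day 3, at 1.39 ± 0.39 log2 units (SE, adjusted p = 0.0129), but not without day 0 replicate 3 (adjusted p = 0.0906) or day 3 replicate 3 (adjusted p = 0.0652). Levels in bone marrow-derived cells were 14.6, 20.4 and 20.5 CPM at day 0 and 24.6, 12.8 and 8.64 CPM at day 12, where the groups overlapped and no change passed. Of its exon length, 13.4% is shared with the predicted genes Gm45901 and Gm15756. Reads over them were counted for neither gene.

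Clu (clusterin, a secreted chaperone that astrocytes release) moved in opposite directions. In iPSC-derived cells its libraries held 54.1, 48.8 and 94.4 CPM at day 0, 49.6, 72.3 and 55.7 at day 3, 49.5, 46.1 and 40.4 at day 6 and 26.2, 19.8 and 14.6 at day 12. Among bone marrow-derived libraries the values were 0, 0.232 and 0.13 CPM at day 0, 4.04, 0.495 and 0.781 at day 3, 2.55, 4.64 and 8.53 at day 6 and 14.8, 10.7 and 9.35 at day 12. The sources lay far apart at day 0, and at day 12 the lowest iPSC-derived library lay within the bone marrow-derived range. From day 0 to day 12 Clu fell by 1.70 ± 0.43 log2 units (SE, adjusted p = 0.00551) in iPSC-derived cells, while its count ratio in bone marrow-derived cells was 92.6 (95% interval 31.4 to 451, adjusted p = 1.5e-06). Without bone marrow-derived day 0 replicate 2 that ratio was 178 (95% interval 31.8 to 7059, against 1 day 0 count). The change from day 0 differed between sources at day 3 (adjusted p = 0.00999), day 6 (adjusted p = 1.0e-04) and day 12 (adjusted p = 7.1e-07). Its day 3 call was lost without bone marrow-derived day 3 replicate 1 (adjusted p = 0.0971). Within co-culture Clu rose by 2.72 ± 0.51 log2 units (SE, adjusted p = 9.9e-04) from day 3 to day 12 in bone marrow-derived cells, or 4.17 without day 3 replicate 1.

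The neural proteoglycan genes rose at all 3 times in both sources, 3 of 3 each time, where 11.2% to 14.7% of all genes did. Their day 0 means were below 1 CPM in both sources, so they passed the filter on low counts through co-cultured libraries. The count is therefore no test of these genes as a class. Ncan (neurocan) and Bcan (brevican) encode chondroitin sulfate proteoglycans of brain matrix, and Ptprz1 a receptor phosphatase of glial precursors that carries the same sugar chains. Ncan held 0.328, 0.109 and 0.322 CPM in iPSC-derived cells at day 0, 5.64, 9.63 and 4.59 at day 3, 22.5, 39.4 and 18.6 at day 6 and 9.59, 23.2 and 21.2 at day 12. For bone marrow-derived cells the libraries held 0.129, 1.16 and 0.13 CPM at day 0, 10.8, 9.99 and 10.4 at day 3, 13.8, 9.12 and 15.2 at day 6 and 10.4, 14.4 and 13 at day 12. Each co-cultured library lay above each day 0 library of its source, and bone marrow-derived libraries already overlapped their day 12 range at day 3. The changes at day 12 were 6.08 ± 0.61 log2 units (SE, adjusted p = 7.4e-08) and 4.65 ± 0.57 log2 units (SE, adjusted p = 1.2e-06), the second a count ratio of 97.5 (95% interval 26.8 to 808, against 2 day 0 counts) without day 0 replicate 2.

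Bcan was highest at day 6, with 10.1, 12.3 and 9.28 CPM in iPSC-derived cells and 4.9, 1.76 and 5.38 CPM in bone marrow-derived cells. It had risen by 5.76 ± 0.94 log2 units (SE, adjusted p = 5.9e-05) and 3.28 ± 0.84 log2 units (SE, adjusted p = 0.00679) at that time, and the first was 6.43 without iPSC-derived day 0 replicate 1. Without bone marrow-derived day 0 replicate 2 its day 6 count ratio there was 65.7 (95% interval 11.5 to 2620, against 1 day 0 count). At day 12 its rises were 4.80 ± 0.92 log2 units (SE, adjusted p = 3.8e-04) (5.47 without iPSC-derived day 0 replicate 1) and 2.89 ± 0.84 log2 units (SE, adjusted p = 0.0132), the second a count ratio of 48 (95% interval 8.42 to 1916, against 1 day 0 count) without day 0 replicate 2. The bone marrow-derived Bcan calls at days 3 and 12 were lost without day 0 replicates 1 or 3, and that at day 3 also without day 3 replicates 2 or 3 (adjusted p from 0.0626 to 0.145). The day 6 source groups did not overlap, but the difference of 1.38 ± 0.71 log2 units (SE, adjusted p = 0.231) did not pass. Ptprz1 reached 24.5, 13.3 and 9.67 CPM in iPSC-derived cells at day 6 and 16, 11.6 and 15.1 CPM in bone marrow-derived cells at day 12. Its day 12 rises were 4.98 ± 0.75 log2 units (SE, adjusted p = 2.3e-05) and 4.82 ± 0.75 log2 units (SE, adjusted p = 2.8e-05). The first was 5.82 without iPSC-derived day 0 replicate 2 and 4.19 without day 12 replicate 2, and the second a count ratio of 110.0 (95% interval 30.3 to 912, against 2 day 0 counts) without bone marrow-derived day 0 replicate 2. On chromosome 3, Bcan (87987531 to 88000230, minus strand, GRCm38) lies 7079 bases from Nes (87971078 to 87980451, plus strand). The 2 neighbours differed in iPSC-derived cells, where Bcan rose at each time while Nes, described below, was called at none.

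Genes of oligodendrocyte precursors split by source and by gene. Olig1, a transcription factor of the lineage, rose in both. Its iPSC-derived libraries held 0.219, 0.109 and 0 CPM at day 0, 8, 2.53 and 1.84 at day 3, 14.3, 22.2 and 12.3 at day 6 and 10.4, 48.7 and 7.69 at day 12. Bone marrow-derived libraries gave 0, 1.39 and 0.13 CPM at day 0, 3.61, 7.02 and 6.92 at day 3, 9.9, 5.92 and 9.47 at day 6 and 8.62, 9.12 and 12.9 at day 12. Day 12 replicate 2 of the iPSC-derived cells held more than 4 times the Olig1 level of the other two, and no day 0 library overlapped a co-cultured one. The iPSC-derived day 12 count ratio, against 3 counts at day 0, was 216 (95% interval 73.7 to 1052, adjusted p = 7.3e-06). It was 82.3 (95% interval 27.7 to 403, against 3 counts) without day 12 replicate 2 and 434 (95% interval 77.7 to 17179, against 1 count) without day 0 replicate 1. The rise in bone marrow-derived cells was 4.24 ± 0.84 log2 units (SE, adjusted p = 5.5e-04), and the count ratio without day 0 replicate 2 was 159 (95% interval 28.3 to 6296, against 1 day 0 count). Within iPSC-derived co-culture the rise of 2.42 ± 0.69 log2 units (SE, adjusted p = 0.0291) from day 3 to day 12 was lost without day 12 replicate 2 (1.14, adjusted p = 0.38), and also without day 3 replicates 2 or 3 (adjusted p = 0.124 and 0.102). It was 3.34 without day 3 replicate 1.

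Olig2, the partner gene 41094 bases from Olig1 on chromosome 16, followed a different pattern in iPSC-derived cells. It had no day 0 count there, and its co-cultured libraries ranged from 0.115 to 6.88 CPM with 1 high library at day 3 (6.88, 1.08 and 0.115 CPM) and 1 at day 12 (6.11, 0.569 and 1.42 CPM). Olig2 was called higher at all 3 times (adjusted p = 0.0256, 0.0215 and 0.0215), but each call was lost without any 1 of the day 0 libraries, with adjusted p from 0.0586 to 0.0781, and those at days 3 and 12 also without replicate 1 of that day (0.141 and 0.0789). At day 12 Olig2 was at least 22.7-fold higher than at day 0, and at least 9-fold without day 12 replicate 1. Olig2 was called at no time in bone marrow-derived cells, where its group means stayed between 0.0773 and 1.22 CPM. The test of a difference between the sources in the day 12 change did not pass (adjusted p = 0.36).

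Cspg4 (NG2, a membrane proteoglycan of precursors and of pericytes) was counted without co-culture in iPSC-derived cells alone. Its iPSC-derived libraries held 78.7, 70.04 and 25.1 CPM at day 0, 33.2, 63.9 and 26.5 at day 3, 30.3, 33.2 and 27.7 at day 6 and 8.87, 12.2 and 16.4 at day 12. No Cspg4 count was found in the 3 bone marrow-derived day 0 libraries, and later ones held 0.656, 0.693 and 2.01 CPM at day 3, 0.532, 0 and 4.68 at day 6 and 1.2, 2.28 and 0.81 at day 12. Every iPSC-derived library lay above every bone marrow-derived one. At day 0 Cspg4 was at least 463-fold higher in iPSC-derived cells (adjusted p = 1.4e-06, and at least 297-fold without bone marrow-derived replicate 2), and at day 12 it was higher by 3.13 ± 0.74 log2 units (SE, adjusted p = 0.00902). That day 12 difference was lost without bone marrow-derived day 12 replicate 1 (adjusted p = 0.0523) or replicate 3 (0.057). Its fall in iPSC-derived cells was -2.21 ± 0.64 log2 units (SE, adjusted p = 0.0165), a call lost without day 0 replicates 1 or 2 or day 12 replicates 1 or 2 (adjusted p from 0.0556 to 0.0725). It was in bone marrow-derived cells at least 11.3-fold higher at day 12 than at day 0 (at least 7.26-fold without day 0 replicate 2), and that call was lost without any 1 of the day 0 libraries or day 12 replicate 2 (adjusted p from 0.0528 to 0.061).

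Pdgfra, the growth factor receptor of precursors and also of fibroblasts, was highest at day 6 in iPSC-derived cells (4.63, 8.68 and 3.12 CPM) and back to 2.4, 0.853 and 0.708 CPM at day 12. Its day 6 call there was lost without day 0 replicates 1 or 2 or day 6 replicate 2 (adjusted p from 0.0822 to 0.0888). Pdgfra rose in bone marrow-derived cells by 4.48 ± 1.18 log2 units (SE, adjusted p = 0.00679) at day 12, with libraries at 8.02, 3.07 and 0.63 CPM. Without day 0 replicate 2 it was at least 19.5-fold higher than a group at 0, and without day 12 replicate 1 it was 3.41 and no longer a call (adjusted p = 0.0526). Sox10, which switches on myelin genes, had no count in any day 0 library. Its iPSC-derived co-cultured libraries held 1.95, 1.44 and 0.459 CPM at day 3, 0.625, 2.98 and 0.879 at day 6 and 3.24, 0 and 0 at day 12, and the bone marrow-derived ones at most 0.297 CPM. The day 6 rise in iPSC-derived cells (at least 13.3-fold, adjusted p = 0.0408) was at least 7.06-fold without day 6 replicate 2, and the call was lost without any 1 of the day 0 libraries or day 6 replicate 2 (adjusted p from 0.0963 to 0.108).

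The myelin genes divided into those counted without co-culture and those that were not. Mbp (myelin basic protein) and Cnp (a myelin-associated phosphodiesterase) were counted in every library. Mbp held 42.1, 32.3 and 59.4 CPM in iPSC-derived cells at day 0, 73.9, 83.5 and 58.2 at day 3, 103, 168 and 78.5 at day 6 and 121, 152 and 68.5 at day 12. The bone marrow-derived libraries held 67.8, 68.1 and 53.3 CPM at day 0, 62.1, 72.1 and 58.2 at day 3, 66.9, 56 and 63.7 at day 6 and 77.3, 72.7 and 64.8 at day 12. The iPSC-derived groups spread upwards while the bone marrow-derived groups stayed within 1 overlapping range. Mbp rose by 1.35 ± 0.26 log2 units (SE, adjusted p = 4.8e-04) in iPSC-derived cells, and the change in bone marrow-derived cells, 0.18 ± 0.26 log2 units (SE, adjusted p = 0.672), did not pass. The 2 changes differed at day 6 by 1.40 ± 0.37 log2 units (SE, adjusted p = 0.0081) and at day 12 by 1.17 ± 0.37 log2 units (SE, adjusted p = 0.0256). The day 12 difference was lost with no scaling factors (adjusted p = 0.0928) and without 1 of 5 libraries, namely iPSC-derived day 0 replicates 1 or 2, day 12 replicate 2, bone marrow-derived day 0 replicate 2 or day 12 replicate 3 (0.0528 to 0.0835). The Mbp gene also makes the golli transcripts of immune cells, and a count per gene does not separate them.

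Cnp moved less. It went from 44.5, 38 and 58.4 to 98.5, 101 and 64.6 CPM in iPSC-derived cells, a rise of 0.91 ± 0.23 log2 units (SE, adjusted p = 0.00533), and from 70.5, 62.6 and 77.9 to 119, 88 and 93.5 CPM in bone marrow-derived cells, where 0.51 ± 0.23 log2 units (SE, adjusted p = 0.112) did not pass. Both pairs of groups were apart. The difference between the 2 changes, 0.40 ± 0.32 log2 units (SE, adjusted p = 0.44), did not pass. Cnp shares 4.23% of its exon length with Dnajc7 on the opposite strand.

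Mobp, a structural protein of compact myelin, had no count at day 0 in either source. Its iPSC-derived libraries held 0.513, 0.12 and 0 CPM at day 3, 2.5, 16.7 and 3.91 at day 6 and 2.88, 9.95 and 3.95 at day 12, with replicate 2 the highest at both later times. It was at least 53.7-fold higher at day 12 than at day 0 (adjusted p = 0.00221), and at least 31.8-fold without day 12 replicate 2. In bone marrow-derived cells the day 12 libraries held 4.81, 0.496 and 0 CPM, and the call there (at least 13.6-fold, adjusted p = 0.0143) was lost without replicate 1 (at least 1.89-fold, adjusted p = 0.166). The bound was at least 21.2-fold without day 12 replicate 3 and at least 8.75-fold without day 0 replicate 2. Mag, the glycoprotein that faces the axon, was called against day 0 in bone marrow-derived cells at days 3 and 6 and at no time in iPSC-derived cells. The test of a difference between the sources in its change from day 0 passed at no day. Its bone marrow-derived libraries went from 1.55, 1.28 and 3.65 CPM at day 0 to 11.5, 14.8 and 15.7 at day 3 and 10.7, 3.57 and 5.67 at day 12, while iPSC-derived libraries held 2.95, 2.19 and 2.47 and 4.1, 2.53 and 0.919 CPM at days 0 and 3. Mag rose by 2.70 ± 0.71 log2 units (SE, adjusted p = 0.0085) in bone marrow-derived cells at day 3 and was lower in iPSC-derived cells at that day by 2.46 ± 0.70 log2 units (SE, adjusted p = 0.0137), a difference lost without iPSC-derived day 3 replicate 3 (adjusted p = 0.0645). The rise was 3.33 without bone marrow-derived day 0 replicate 3. The day 6 rise in bone marrow-derived cells, 2.06 log2 units, lost its call in 4 of 6 fits that left out 1 library (adjusted p from 0.104 to 0.145). In iPSC-derived cells day 6 replicate 2 held 17.6 CPM, the highest Mag level of all 24 libraries. Mag was called in neither source at day 12. Cldn11, a tight junction protein of myelin, reached a mean of 1 CPM only in iPSC-derived co-culture (at most 5.63 CPM in 1 library) and was called at no time. Mog, the surface myelin glycoprotein, was at 0 in 19 of 24 libraries and never above 1.12 CPM.

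Of the progenitor genes, Fabp7 (the brain fatty acid-binding protein of radial glia) rose in both sources at all 3 times. Its iPSC-derived libraries held 0.875, 0.766 and 0.429 CPM at day 0, 8, 6.98 and 23.5 at day 3, 19.6, 8.68 and 29.3 at day 6 and 5.15, 10.4 and 12.7 at day 12. Bone marrow-derived values were 0, 1.51 and 0 CPM at day 0, 15.1, 13.9 and 9.93 at day 3, 17.4, 10.7 and 13.3 at day 6 and 21.8, 25.3 and 32.7 at day 12. At day 12 the bone marrow-derived libraries lay above the iPSC-derived ones without overlap, but the difference of -1.49 ± 0.57 log2 units (SE, adjusted p = 0.111) did not pass. Day 12 rises were 3.75 ± 0.71 log2 units (SE, adjusted p = 3.9e-04) and 5.62 ± 0.76 log2 units (SE, adjusted p = 6.1e-06). All 13 day 0 counts of the bone marrow-derived cells lay in replicate 2, and without it day 12 was at least 138-fold higher than a group at 0.

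Nes encodes nestin, an intermediate filament of progenitors that other growing cells also make. It held 37.4, 55.2 and 54.7 CPM in iPSC-derived cells at day 0, 41.6, 58.1 and 22.3 at day 3, 42, 29.4 and 32.2 at day 6 and 44.7, 32.9 and 24.4 at day 12. Its bone marrow-derived levels were 0.387, 0.232 and 1.56 CPM at day 0, 4.48, 2.87 and 3.91 at day 3, 4.9, 5.28 and 5.85 at day 6 and 14.1, 5.65 and 9.62 at day 12. The iPSC-derived groups overlapped at all times, whereas each bone marrow-derived group in co-culture lay above day 0. At day 0 Nes was higher in iPSC-derived cells by 6.08 ± 0.50 log2 units (SE, adjusted p = 1.2e-09), and at day 12 by 1.79 ± 0.38 log2 units (SE, adjusted p = 0.0023). The day 0 difference was 7.29 without bone marrow-derived day 0 replicate 3, which held most of that group's Nes counts. It rose in bone marrow-derived cells by 3.76 ± 0.50 log2 units (SE, adjusted p = 3.9e-06) at day 12 (4.94 without day 0 replicate 3). The change from day 0 was smaller in iPSC-derived cells by 2.64 ± 0.64 log2 units (SE, adjusted p = 0.00358) at day 3, 3.39 ± 0.63 log2 units (SE, adjusted p = 3.3e-04) at day 6 and 4.29 ± 0.62 log2 units (SE, adjusted p = 1.6e-05) at day 12, and the differences were -3.86, -4.57 and -5.46 log2 units without that library. Sox2, the progenitor transcription factor, had few counts. Its highest group mean was 1.09 ± 0.993 (SD, n = 3) CPM, at day 12 in bone marrow-derived cells, where replicate 3 held 2.16 CPM. Sox2 was called in iPSC-derived cells at days 6 and 12 (adjusted p = 0.0332 and 0.018) from 13 and 22 counts against 0, at least 4.55-fold and 7.03-fold higher. The second bound was at least 4.38-fold without iPSC-derived day 12 replicate 3. That library also held the highest sum of pluripotency markers (19.02 CPM), and a link was not tested. Both calls were lost without any 1 of the day 0 libraries, the first also without day 6 replicate 1 (adjusted p from 0.0504 to 0.0862).

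**Figure D3:**
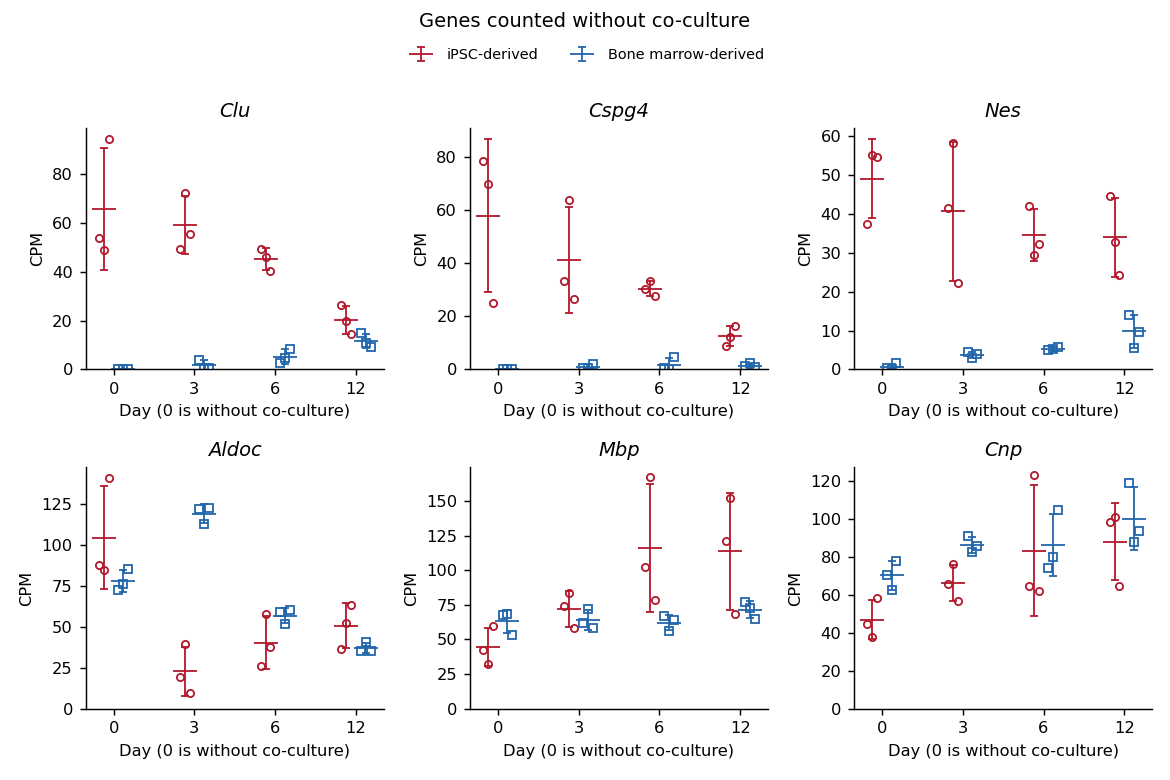
CPM of 6 genes that were counted without co-culture in iPSC-derived cells, by day and source (circles iPSC-derived, squares bone marrow-derived, wide bars the mean and error bars the SD of 3 libraries). Clu, Cspg4 and Nes lie apart between sources at day 0, Aldoc is low at day 3 in iPSC-derived cells and high in bone marrow-derived cells, and Mbp spreads upwards in iPSC-derived cells alone.

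The sources were also compared directly at each day. At day 0, 3 of the 28 genes were higher in iPSC-derived cells (Clu, Cspg4 and Nes) and 1 lower (Sox9), where 18.9% and 17.1% of all genes were (36% in either direction). The Clu count ratio was 529 (95% interval 181 to 2566, adjusted p = 2.5e-09), and 1018 (95% interval 182 to 40223, against 1 count) without bone marrow-derived day 0 replicate 2. The Sox9 call rests on 5 counts against 0, with overlapping groups, and was lost without bone marrow-derived day 0 replicate 2 (adjusted p = 0.296) or any 1 of the iPSC-derived libraries (0.079 to 0.0816). At day 3, 3 were higher (Clu, Cspg4 and Nes) and 5 lower (Aqp4, Atp1b2, Aldoc, Slc4a4 and Mag), against 8.94% and 8.92% of all genes. The Aqp4 call was lost without bone marrow-derived day 3 replicate 2 (adjusted p = 0.17) or any 1 iPSC-derived library (0.0681 to 0.0845). The Slc4a4 call was lost without iPSC-derived replicates 1 or 2 or bone marrow-derived replicates 2 or 3 (0.0816 to 0.13). At day 6, 5 were higher (Clu, Cspg4, Mbp, Mobp and Nes) and 0 lower, against 6.99% and 6.23%. Both myelin calls at day 6 were lost without iPSC-derived day 6 replicate 2 (adjusted p = 0.191 for Mbp and 0.142 for Mobp) or any 1 bone marrow-derived day 6 library. Without such a bone marrow-derived library the count of 5 was 3, and calls over all genes fell from 1982 to between 1330 and 1385. At day 12 Cspg4 and Nes were higher and 0 were lower, against 5.03% and 4.74% of all genes (9.77% in either direction). Without bone marrow-derived day 12 replicate 1 or replicate 3 the count at day 12 was 1, and calls over all genes were 1031 and 1093 against 1465. With library totals alone the share of all calls that were higher moved from 50.1% to 31.7% at day 3, 52.9% to 40.5% at day 6 and 51.5% to 25.2% at day 12.

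Changes from day 0 were compared between sources in the same model. A lower call means that the change in iPSC-derived cells was below that in bone marrow-derived cells. At day 3 the calls were 0 higher and 4 lower (Aldoc, Clu, Cspg4 and Nes), against 9.03% and 11.5% of all genes. At day 6 they were 2 higher (Mbp and Sox9) and 3 lower (Clu, Cspg4 and Nes), against 8.62% and 11.1% (19.7% in either direction), and at day 12 they were 1 higher (Mbp) and 3 lower (Clu, Cspg4 and Nes), against 9.07% and 11% (20.1% in either direction). Without bone marrow-derived day 6 replicate 3 the day 6 count of 5 was 3, with Cspg4 lost (adjusted p = 0.0788). Calls over all genes were then 2451 against 2951. The Sox9 difference at day 6 was lost in 10 of 12 fits that left out 1 library (adjusted p from 0.0512 to 0.297), and the Cspg4 difference at day 3 in 7 of 12 (0.0507 to 0.0967). With library totals alone the share of all differences that were higher moved from 44% to 27.4%, 43.8% to 30.6% and 45.2% to 25.5% at the 3 days. Of the 19 genes that rose by day 12 in each source, 15 rose in both. Cnp, Mbp, Olig2 and Sox2 were called higher in iPSC-derived cells alone, and Clu, Cspg4, Nes and Pdgfra in bone marrow-derived cells alone. Of these 8, the difference between sources passed for Mbp, Clu, Cspg4 and Nes, and did not for Cnp (adjusted p = 0.44), Olig2 (0.36), Sox2 (0.412) or Pdgfra (0.142).

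Within co-culture, from day 3 to day 12, 9 of the 28 genes rose and 1 fell in iPSC-derived cells, against 4.07% and 4.82% of all genes (8.89% in either direction). The 9 were Gfap, Aqp4, Atp1b2, Sox9, Aldoc, Slc4a4, Ncan, Olig1 and Mobp, and Clu fell by 1.55 ± 0.43 log2 units (SE, adjusted p = 0.0252). Only Gfap and Aqp4 kept their call in each of the 6 fits that left out 1 library. The count of 10 calls was 5 without day 3 replicate 1 or replicate 3, and 4 without day 3 replicate 2 or day 12 replicate 2. Calls over all genes, 1334 with all libraries, were 819, 1219, 891 and 780 in these fits, in the order named. A fit of these 6 libraries alone called 3, and 324 over all genes. In bone marrow-derived cells Gfap, Clu and Nes rose and Aldoc fell, against 4.2% and 4.25% of all genes (8.45% in either direction). The Nes call was lost in 5 of 6 fits that left out 1 library (adjusted p from 0.0567 to 0.178), and the other three were kept in all 6. With library totals alone the share of all calls that were higher moved from 45.8% to 57.1% in iPSC-derived cells and from 49.7% to 61% in bone marrow-derived cells.

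Some libraries held the highest level of several of these genes. Of the 30 genes, 10 had their highest level of all 24 libraries in iPSC-derived day 6 replicate 2. These were the 5 myelin genes Mbp, Mog, Mag, Cnp and Mobp along with Slc1a2, Fgfr3, Ncan, Bcan and Pdgfra. Some leads over the next library were small, as for Cnp (123 against 119 CPM) and Mag (17.6 against 15.7 CPM). Others were larger, as for Ncan (39.4 against 23.2 CPM) and Mobp (16.7 against 9.95 CPM). The share of all genes that were highest in this library was not computed, so the count describes the 30 genes only. In iPSC-derived day 12 replicate 1, 5 other genes were highest (Aqp4, Slc4a4, S100b, Sox10 and Cldn11), and in replicate 2 of that day Sox9 and Olig1. Aldoc, Aldh1l1 and Clu were each highest in iPSC-derived day 0 replicate 3. The replicates of a group differed in which glial transcripts they held.

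The 30 genes were also ordered on a scale that divides by the deposited gene length (FPKM). That length covers all annotated exons of a gene (8403 bases for Mbp and 3639 for Cnp) and is not that of the transcripts present. The order therefore depends on the annotation. At day 0 Aldoc was highest in both sources, at 32 ± 9.65 FPKM in iPSC-derived cells and 23.9 ± 2.08 FPKM in bone marrow-derived cells (SD, n = 3). Clu was the second in iPSC-derived cells and Cnp in bone marrow-derived cells. By day 12 Cnp was highest in both, at 24.2 ± 5.59 and 27.5 ± 4.57 FPKM, and the next levels were Aldoc in iPSC-derived cells (15.5 ± 4.17 FPKM) and Fabp7 in bone marrow-derived cells (21.2 ± 4.45 FPKM). Gfap was among the 5 highest in iPSC-derived cells, at 10.2 ± 0.356 FPKM, within the SD of Olig1 above it at 10.3 ± 10.6 FPKM. In bone marrow-derived cells Gfap was not among the 5 highest. By CPM, which does not divide by length, Mbp was highest at day 12 in iPSC-derived cells (114 against 88.1 for Cnp). Cnp was highest by CPM in bone marrow-derived cells (100 against 71.6 for Mbp).

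Other genes of the same cell types were read from lists chosen by role. Of 16 other astrocyte genes 11 were tested, and 10 rose and 0 fell in iPSC-derived cells by day 12, against 7 and 0 in bone marrow-derived cells. Of all genes tested 14% rose and 10.7% fell by then in iPSC-derived cells, and 14.7% and 9.08% in bone marrow-derived cells. The list's 3 highest genes were Glul (glutamine synthetase), Sparcl1 (a secreted synapse-forming protein) and Plpp3 (a lipid phosphatase). Sparcl1 went from 0.438 to 27.3 CPM in iPSC-derived cells (log2 fold change 5.93 ± 0.72 SE, adjusted p = 1.5e-06) and from 0.705 to 18.7 CPM in bone marrow-derived cells (log2 fold change 4.65 ± 0.67 SE, adjusted p = 1.5e-05). Fits without single libraries were not made for these lists. Glul, which macrophages also express, rose in iPSC-derived cells (log2 fold change 1.70 ± 0.17 SE, adjusted p = 6.7e-08) and did not pass in bone marrow-derived cells (log2 fold change -0.43 ± 0.17 SE, adjusted p = 0.0614), and Plpp3 the reverse, not passing in iPSC-derived cells (log2 fold change 0.60 ± 0.54 SE, adjusted p = 0.458) and rising in bone marrow-derived cells (log2 fold change 1.81 ± 0.58 SE, adjusted p = 0.0232). Of 18 other oligodendrocyte genes 10 were tested, with 3 rises and 0 falls in iPSC-derived cells and 1 and 0 in bone marrow-derived cells. Vcan (versican) rose in both, to 5.12 and 8.26 CPM. Bcas1, a gene of newly forming oligodendrocytes, passed in neither, at 1.54 and 1.31 CPM. Of 12 other progenitor genes 7 were tested, and 2 rose and 0 fell in each source. Prom1 (prominin) rose in both to 2.6 and 1.83 CPM, from 2 and 1 day 0 counts, and the Notch ligand gene Dll1 passed in neither. Hes5 (a Notch target) was called higher in iPSC-derived cells, at a mean of 2.1 CPM. Its day 12 libraries there ran from 0 to 5.40 CPM and overlapped the day 0 group, which held 1 count. The Hes5 count ratio was 63.3 (95% interval 11 to 2537, adjusted p = 0.011). Pluripotency markers (7 genes) were at 0 in the 3 bone marrow-derived day 0 libraries. Their sum was highest in iPSC-derived day 12 replicate 3, at 19.02 CPM with all 7 detected. Replicates 1 and 2 of that group held 1.56 and 3.98 CPM. The next highest library, iPSC-derived day 3 replicate 2, held 4.33 CPM.

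**Figure D4:**
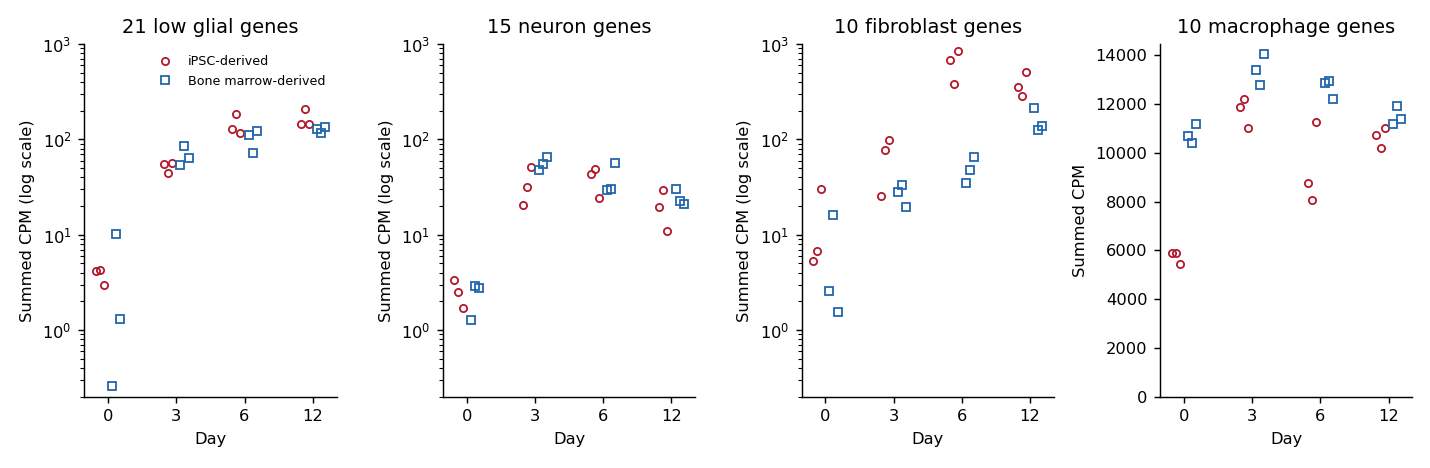
Summed CPM per library of the 21 glial and progenitor genes below 1 CPM at day 0 in both sources, and of lists of 15 neuron, 10 fibroblast and 10 macrophage genes (circles iPSC-derived, squares bone marrow-derived). The 21 were chosen by that day 0 level, so their low day 0 sums follow from the choice. The first 3 panels have a log scale, on which all co-cultured libraries lie above day 0 for the glial and neuron genes, and bone marrow-derived day 0 replicate 2 lies above the other two for the glial and fibroblast genes.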

How the data were processed

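The deposited values are counts of reads per gene, summarised with featureCounts (1.5.0-p1) over exons of GENCODE vM9, per the file headers, with no strand option and no counting of reads over several genes. The authors aligned reads with STAR to mm10 (GRCm38), per the submitters' processing notes. Of 47643 rows, 419 without a symbol (0.0635% of counts) took no part in symbol matching. The table held 0 spike-in rows, and no 2 libraries were identical. Each of the 24 libraries was assigned to its group by its label.

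Counts were tested with edgeR (4.0.16, R 4.3.3) by quasi-likelihood over all 24 libraries, 1 coefficient per group, TMM scaling and filterByExpr (minimum count 10, total 15), which kept 15000 genes. Adjustment was by Benjamini-Hochberg within each of 15 comparisons. CPM use TMM-scaled library sizes, and FPKM the deposited gene lengths. A group at 0 gives a bound from a floor of 3 counts over the group. A group with 1 to 3 counts gives a ratio with an exact 95% binomial interval. Bounds and intervals cover counting error only. Tables and figures used Python 3.11.15, pandas 2.3.3, scipy 1.17.1 and matplotlib 3.10.9. The fit was tested on simulated data. DESeq2 (1.42.0), other scalings, no filter, fits of the compared groups alone, a replicate block and leaving out each library were alternatives. The 30 genes and all lists were chosen with earlier results of these data known. Values are given for all 30 genes with a mean of at least 1 CPM in any group, fold changes for genes called at day 12 and for part of the other calls, and of each other glial list the 3 genes highest in mean CPM, of which 1 is not reported here.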

Additional observations from a re-analysis of the deposited data

Results flagged for a closer look

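The change from day 0 differed between the sources for 6 of the 28 genes tested, by the test of the difference itself, at 1 or more of the 3 days. By day the calls numbered 4, 5 and 4, where 20.5%, 19.7% and 20.1% of all genes tested differed. The share of all genes that differed at any of the days was not computed, so the count of 6 describes these genes only. For Aldoc the difference at day 3, iPSC-derived minus bone marrow-derived, was -2.81 log2 units. For Nes it was -2.64 at day 3, -3.39 at day 6 and -4.29 at day 12. For Mbp it was 1.40 at day 6 and 1.17 at day 12. Clu, Cspg4 and Sox9 have a group with at most 3 counts, so only their edgeR adjusted p is given. Clu had adjusted p = 0.00999 at day 3, 1.0e-04 at day 6 and 7.1e-07 at day 12. Cspg4 had adjusted p = 0.0318, 0.00784 and 0.00239 at the same days, and Sox9 had adjusted p = 0.0436 at day 6. That Sox9 call was lost with DESeq2 (adjusted p = 0.0518) and with no filter (0.0936). It was also lost in the fit of the compared groups alone (0.0932) and with a replicate block (0.0749).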

How the results depend on the processing

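Of 1906 recomputed values for the 155 calls in the fit of all libraries, 1711 kept their direction and call, 195 lost the call, and 0 changed direction. Leaving out 1 library gave 1008 of the 1906. For 123 of the 155 calls there was a value in fits of the compared groups alone. Calls not tested there are not counted as lost. Fits of the compared groups alone called 12 genes in iPSC-derived cells at day 6 (21 in the fit of all libraries), 3 from day 3 to day 12 (10) and 4 between the sources at day 12 (2). Over all genes these fits called 1938 (3804), 324 (1334) and 1018 (1465). Of the 9 genes missing at day 6, 7 did not pass the filter on low counts of that fit, and Cnp and Pdgfra lost the call (adjusted p = 0.0839 and 0.0582). From day 3 to day 12, 1 of 7 did not pass the filter and 6 lost the call. The cause of the lost calls, and of the added calls at day 12, was not tested. With no filter on low counts, 5 genes differed between sources at day 12 and 7 changed differently at day 3 (4). Over all genes the numbers were 1880 (1465) and 3136 (3075). Leaving out 1 library gave 10 to 11, 15 to 21 and 19 to 24 calls at days 3, 6 and 12 in iPSC-derived cells, 12 to 17, 15 to 17 and 15 to 19 in bone marrow-derived cells, 4 to 9 and 3 to 4 from day 3 to day 12, 3 to 5, 6 to 8, 3 to 5 and 1 to 3 between sources at days 0, 3, 6 and 12, and 3 to 5 for the difference in change at each day. Calls over all genes also moved when 1 library was left out. From day 0 to day 12 they numbered 2748 to 3641 in iPSC-derived cells (3706 with all libraries) and 2699 to 2893 in bone marrow-derived cells (3568). DESeq2 kept 153 of 155 calls. Deviations of same-numbered libraries correlated at a median of 0.0317 (iPSC-derived, 4 of 18 pairs over 0.1) and 0.0113 (bone marrow-derived, 0 of 18). Libraries with different numbers correlated at a median of -0.0168 (iPSC-derived, 1 of 36) and -0.00536 (bone marrow-derived, 0 of 36). The correlations are small, but a weak pairing by replicate number is not excluded. With a replicate block, calls numbered 11, 21 and 23 in iPSC-derived cells and 15, 17 and 20 in bone marrow-derived cells. Genes under 1 CPM rest on few counts per library, which limits what could be called.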
